A study of Mus musculus with 36 samples.

Results

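The comparison described here set primary mouse microglia that lack Usp18 against wild-type (WT) microglia, both left without added interferon. It rests on 4 of the 36 arrays of the study. There were 2 arrays of untreated Usp18 knockout (KO) microglia and 2 of untreated WT microglia deposited in the same run of 12 arrays, chosen by their titles and by that run. The labels call the replicates biological. They do not give the extent of the deletion, the strain, the age of the mice or how many animals a culture held. All cells were grown in DMEM GlutaMAX with serum and antibiotics, and RNA was read on Affymetrix arrays of 22690 probe sets. The other arrays used below are KO and WT microglia of the same run given 500 U/ml interferon beta (IFN-b) for 6 h or 24 h, and untreated microglia of a second run, which were WT or carried the Usp18 C61A mutation, a change of the catalytic cysteine. Each of these groups had 2 arrays.

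Usp18 is known for a pair of roles in the type I interferon pathway. It removes the ubiquitin-like protein ISG15 from its targets, and it sits on the receptor chain IFNAR2, where it limits JAK1 signalling. Interferon binding to its receptor activates the kinases JAK1 and TYK2. The signal reaches promoters that hold interferon-stimulated response elements, and Usp18 is itself induced by that route. Microglia, the resident macrophages of brain tissue, express the receptor, and their genes for antiviral defence are kept low in healthy brain.

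Usp18, read by 1 probe set, lay at 4.40 and 3.77 on the KO arrays and at 5.68 and 5.99 on the WT arrays (log2 intensity, as in all levels below). The KO arrays were lower with no overlap, and the change was -1.75 ± 0.271 (log2 difference, KO minus WT, ± standard error, n = 2 arrays a group; limma, adjusted p = 0.00314). The call was lost in the fit of 24 microglia arrays described below and with the WT arrays of both runs pooled. A tested gene had to exceed the array median on 2 or more arrays. Of the 4 untreated arrays Usp18 did so only on WT replicate 2, so it was not tested with these arrays alone. It entered the fit of 12 arrays through arrays given IFN-b. Without interferon this transcript was low in WT cells too, close to the median of an array, which ran from 5.68 to 5.82 over the 4 arrays. Whether the probe set lies in the deleted part is not given in the sources used here.

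Of 7528 genes tested, 721 rose in untreated KO cells (9.58%) and 621 fell (8.25%), by an adjusted p under 0.05 in limma with Benjamini-Hochberg adjustment. The counts in gene lists below are to be read against these shares. A change of log2 1 is a doubling. The increases were the larger changes. Among genes that rose, 500 did so by over 1, 200 by over 2 and 56 by over 4, whereas 299 genes fell by over 1, 39 by over 2 and 2 by over 4. The WT mean lay below the lowest array median of the run (5.62) in 139 genes that rose, and the KO mean in 101 that fell, so the size of those changes depends on the floor of the array. Where a called gene had other probe sets, 723 of 741 moved the same way.

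The KO arrays were less alike than the WT arrays. Over the genes tested the values correlated at 0.932 between the KO arrays and at 0.980 between the WT arrays. KO replicate 1 correlated with the WT arrays at 0.807 and 0.810, and KO replicate 2 at 0.890 and 0.885. KO replicate 1 lay farther from WT in 617 of the 721 genes that rose and in 495 of the 621 that fell. Without KO replicate 1 the counts were 386 up and 136 down, and without KO replicate 2 they were 796 and 787. Without WT replicate 1 they were 424 and 204, and without WT replicate 2 they were 406 and 128. The array left alone in its group is assumed in these fits to vary like the other groups. With the 4 untreated arrays alone in the fit, 316 genes rose and 114 fell. A named gene keeps its call when any one of the 4 arrays is left out, except where it is said not to. Of those that do, Aif1, Atf4, Bcl3, Bin1, Casp1, Casp6, Ccl4, Il1rn, P2ry12 and Usp15 lost it with the 4 arrays alone, and Aldh1l1, Fcgr1, Il15, P2ry12 and Usp18 with 24 arrays.

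**Figure D1:**
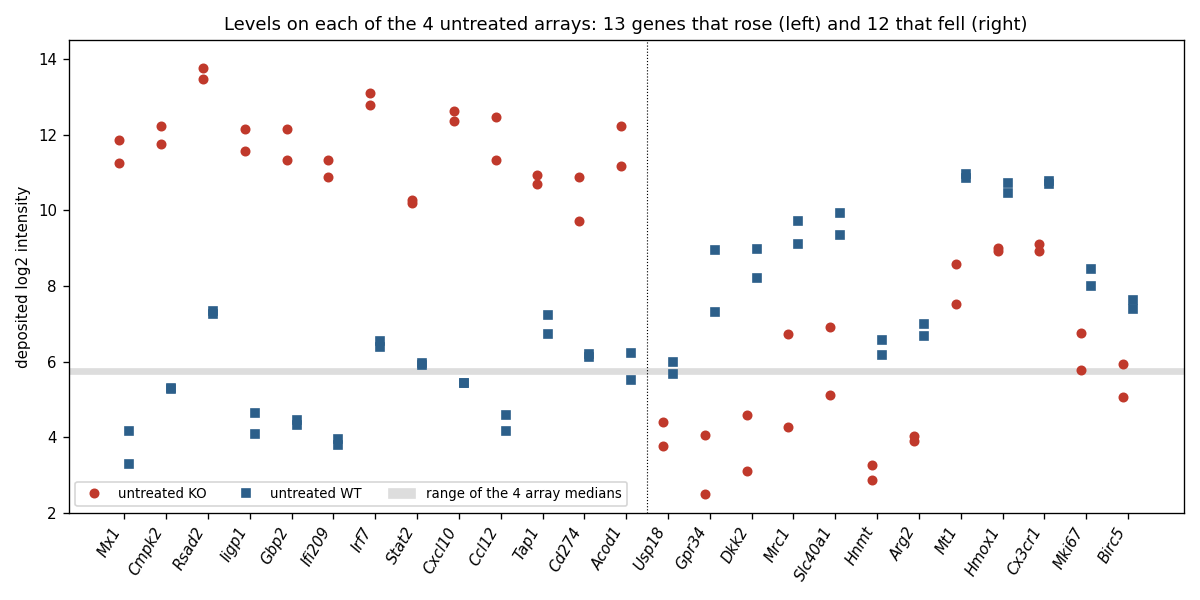
Log2 intensity (vertical axis) of 13 genes that rose and 12 that fell, with 1 point for each of the 4 untreated arrays, circles for KO and squares for WT; the grey band spans the 4 array medians. These genes were taken from the 1342 called genes, so the gap between KO and WT points follows from that choice and adds no support to the calls. Mrc1 and Slc40a1 show a wider gap between the KO arrays than between the WT arrays.

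The antiviral effectors, proteins that act against viral RNA, entry and replication, rose in 27 of 29 tested members and fell in none, with a median change of 3.45, against -0.09 over all genes tested. The count was 27 without each of the 4 arrays in turn and 26 with the 4 arrays alone. Mx1, a dynamin-like GTPase that blocks viral nucleocapsids, lay at 11.87 and 11.26 in KO and at 3.29 and 4.18 in WT. Its increase of 7.83 ± 0.319 (limma, adjusted p = 9.06e-07) was the largest of all genes tested, a fold of 227 whose WT side lies below the array median. Rsad2, which encodes viperin, lay at 13.76 and 13.47 against 7.27 and 7.34, a change of 6.32 ± 0.143 (limma, adjusted p = 7.63e-08). Here the WT level was above the array median and the fold was 79.7. Cmpk2, the neighbour of Rsad2 in the genome and a mitochondrial nucleotide kinase, lay at 12.24 and 11.75 against 5.28 and 5.30. Isg20, an exonuclease that degrades single-stranded RNA, lay at 12.54 and 11.47 against 4.95 and 5.30. Within the OAS family Oasl1 rose by 6.46 ± 0.342 and Oas3, which makes the 2-5A messenger that activates RNase L, by 6.41 ± 0.338. Ifit1, a sensor of viral 5' ends, rose by 5.87 ± 0.150. The 2 members that did not pass were Ifitm2, with a change of -0.57, and Ifitm1, with a change of -1.07. Members of the OAS, IFIT and IFITM families, like those of the GBP, Schlafen, Ms4a and H2 families below, resemble each other in sequence, and an array probe set can read a close relative.

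The interferon-inducible GTPases, which coat and disrupt membranes around intracellular pathogens, all rose: 10 of 10, with a median change of 5.57, the highest of any list. The count stayed at 10 without each array in turn and was 9 with the 4 arrays alone. Iigp1 lay at 12.16 and 11.58 in KO and at 4.10 and 4.64 in WT, a change of 7.50 ± 0.239 (limma, adjusted p = 2.01e-07). Gbp2, a guanylate-binding protein, lay at 12.15 and 11.33 against 4.34 and 4.47, a change of 7.34 ± 0.266. Gbp6 rose by 7.11 ± 0.286, Ifi47 by 5.70 ± 0.155, Gbp3 by 5.62 ± 0.340 and Gbp7 by 5.51 ± 0.197. The KO arrays were at 10.99 and 9.78 for Gbp3, more than 1 log2 unit apart, and still more than 4 units above WT at 4.86 and 4.68. Gbp8 had the smallest increase of the list, 3.40 ± 0.610.

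Promoters of these genes were searched for the letters of the interferon-stimulated response element. In RefSeq promoter windows of 250 bases before the start site (build GRCm38.p6), the core GAAANNGAAA, on either strand, was present in 7.17% of 795 windows of genes that rose. It was present in 30.0% of 50 windows of genes that rose by over 4, in 2.05% of 633 windows of genes that fell, in 2.90% of 8014 windows of all tested genes and in 2.98% of the 32851 windows listed for all genes. The longer form GAAANNGAAACT, which contains the core, was present in 2.26%, 14%, 0%, 0.312% and 0.222% of the same sets. Among the GTPases 6 of 8 windows held the core and 4 the longer form. A window was found for 580 of the 721 genes that rose and for 500 of the 621 that fell. These shares are descriptions of letters, and a match is not a site.

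The choice of promoters to show left out the genes of a whole chromosome, so a gene with a larger increase may be missing. Among the remaining genes whose promoter holds the longer form within 120 bases of the start site, the 6 with the largest increases were taken. They are shown as the 120 bases before the start site, 5' to 3' on the strand of the gene, with the matches in capitals. Where the match lies on the opposite strand its capitals read as the reverse complement. In Gbp3 a pair of matches overlaps. The windows lie at chr3:142620543-142620662 on the plus strand for Gbp2, chr19:34640769-34640888 (plus) for Ifit1, chr3:142559924-142560043 (plus) for Gbp3, chr3:142530216-142530335 (plus) for Gbp7, chr8:61927967-61928086 (plus) for Ddx60 and chr11:48871421-48871540 (minus) for Irgm1.
Gbp2: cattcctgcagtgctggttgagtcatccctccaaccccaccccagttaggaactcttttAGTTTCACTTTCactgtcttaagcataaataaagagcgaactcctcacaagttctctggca
Ifit1: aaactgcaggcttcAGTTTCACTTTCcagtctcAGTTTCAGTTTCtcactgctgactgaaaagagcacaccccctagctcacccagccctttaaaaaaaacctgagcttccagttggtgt
Gbp3: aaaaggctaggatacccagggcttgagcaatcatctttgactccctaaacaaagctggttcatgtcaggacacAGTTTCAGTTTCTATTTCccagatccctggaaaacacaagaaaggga
Gbp7: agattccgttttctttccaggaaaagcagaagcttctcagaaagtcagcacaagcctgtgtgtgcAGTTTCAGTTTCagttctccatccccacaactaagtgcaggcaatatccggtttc
Ddx60: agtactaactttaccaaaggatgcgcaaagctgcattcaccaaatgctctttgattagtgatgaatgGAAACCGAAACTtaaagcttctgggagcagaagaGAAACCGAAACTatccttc
Irgm1: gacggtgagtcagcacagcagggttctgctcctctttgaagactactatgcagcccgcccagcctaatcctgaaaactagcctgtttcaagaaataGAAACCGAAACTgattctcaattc
Counted from the start site, the match begins at -61 in Gbp2, at -55 in Gbp7 and at -24 in Irgm1. The other 3 windows hold 2 matches each, beginning at -106 and -87 in Ifit1, at -47 and -41 in Gbp3 and at -53 and -19 in Ddx60.

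**Figure D2:**
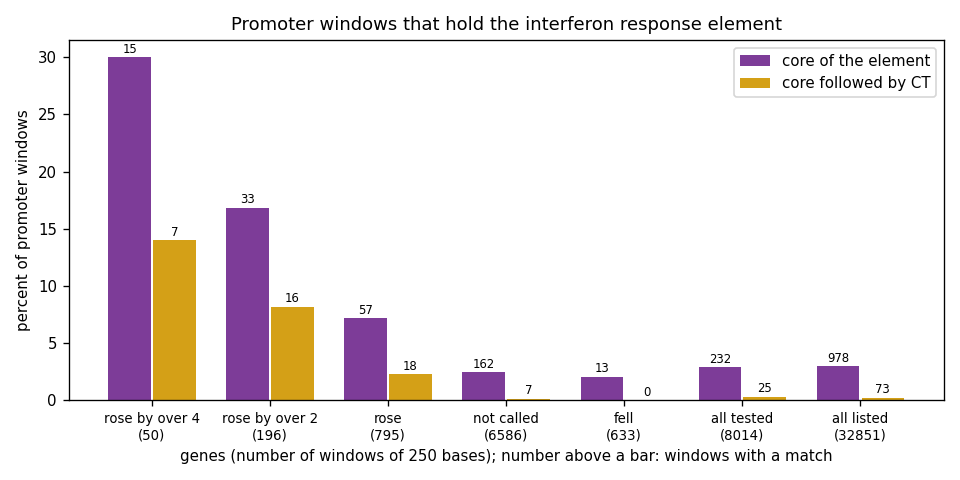
Percent of promoter windows (vertical axis) that hold the core of the interferon-stimulated response element or the core followed by CT, for genes grouped by their change in untreated KO microglia; numbers in brackets are windows and numbers above bars are windows with a match. The share with the core goes from 2.05% among genes that fell to 30.0% among genes that rose by over 4.

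Sensors of nucleic acids rose in 8 of 10 tested members (median change 3.73), in 7 without KO replicate 1, WT replicate 1 or WT replicate 2 and in 8 without KO replicate 2. Ifi209, of the family that binds DNA, lay at 11.32 and 10.88 in KO and at 3.81 and 3.95 in WT, a change of 7.22 ± 0.183. Zbp1, which senses Z-form nucleic acid and can start cell death, lay at 11.17 and 10.73 against 4.85 and 5.55. The cytoplasmic RNA helicases rose with them: Ddx60 by 5.01 ± 0.247, Dhx58, which encodes LGP2, by 3.88 ± 0.211 and Ifih1, which encodes MDA5, by 3.59 ± 0.184. The adaptors downstream of these sensors did not pass, with changes of 0.69 for Sting1 (adjusted p = 0.12) and -0.47 for Mavs (adjusted p = 0.13). Among Toll-like receptors and their adaptors 5 of 14 rose, and Tlr3, the receptor for double-stranded RNA, stood apart with levels of 10.36 and 9.45 against 5.92 and 6.10, a change of 3.90 ± 0.268. Myd88, the adaptor of most of these receptors, rose by 1.41 ± 0.157. Tlr7, Tlr1 and Unc93b1 made up the count but each lost its call without KO replicate 1, and the list had 2 that rose without KO replicate 1 or WT replicate 1, 3 without WT replicate 2 and 4 without KO replicate 2.

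All 13 tested TRIM and PARP genes rose, by 1.63 to 3.72 with a median of 3.02, and all 13 kept their calls without each array and with the 4 arrays alone. They include Pml and Sp100, which organise nuclear bodies that restrict DNA viruses, at 9.21 and 9.15 against 5.89 and 6.07 for Pml and at 9.25 and 9.75 against 5.94 and 6.29 for Sp100. Parp12 and Parp14, which transfer ADP-ribose, rose by 3.10 ± 0.162 and 3.08 ± 0.231. Of the genes for ISG15 conjugation, which counter the protease activity of Usp18, the E1 enzyme Uba7 lay at 10.70 and 10.65 in KO and at 7.42 and 7.26 in WT, and the E2 enzyme Ube2l6 at 8.86 and 8.42 against 4.90 and 5.26. Their increases were 3.34 ± 0.159 and 3.56 ± 0.211. The ligase gene Trim25, in this list and not in that of the TRIM genes, rose by 1.47 ± 0.197.

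Among the JAK-STAT and IRF factors, which carry and amplify the signal, 12 of 17 rose and none fell (median change 1.13). The count was 9 without KO replicate 1 or WT replicate 2, 10 without WT replicate 1 and 8 with the 4 arrays alone. Irf7, the interferon-induced factor that drives interferon alpha genes, lay at 13.10 and 12.78 in KO and at 6.55 and 6.39 in WT, a change of 6.47 ± 0.184 (limma, adjusted p = 1.08e-07). Stat2 lay at 10.26 and 10.19 against 5.91 and 5.97, a change of 4.29 ± 0.156. Irf1 rose by 2.72 ± 0.179, Tyk2 by 1.49 ± 0.195, Jak2 by 1.48 ± 0.177 and Irf9 by 1.36 ± 0.191. Irf5 rose by 1.32 ± 0.165 on the probe set used, and another of its probe sets moved the opposite way. Jak1, Irf3 and Irf8 did not pass, with changes of -0.17, -0.24 and -0.24.

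The ligands and receptors did not follow these factors. Ifnb1 lay at 5.20 and 4.68 in KO and at 3.89 and 3.85 in WT. Its increase of 1.07 ± 0.221 (limma, adjusted p = 0.0116) lies below the array median in both groups and lost its call without KO replicate 1, WT replicate 1 or WT replicate 2. Ifna1, Ifna2 and Ifna4 stayed under the array medians and were not tested. Ifnar1, the other chain of the type I receptor, fell by 0.83 on the log2 scale, and lost its call without KO replicate 1 or WT replicate 2. Ifnar2, the chain to which Usp18 binds, lay at 9.68 and 10.02 in KO and 9.83 and 10.17 in WT, with overlap and a change of -0.15 ± 0.184. Ifngr1, a chain of the interferon gamma receptor, fell by 1.35 and lost its call without WT replicate 2. Of 12 feedback inhibitors 3 rose. Socs1, which blocks JAK kinases, lay at 8.65 and 7.37 against 4.56 and 4.34, a change of 3.56 ± 0.350. The calls of the other two, Socs2 and Ptpn6, were lost without KO replicate 1, WT replicate 1 or WT replicate 2, which left 1. Without KO replicate 2 there were 4. Socs3 had a change of 0.60 and did not pass.

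Of 25 other ubiquitin-specific proteases, relatives of Usp18, 5 rose and none fell, with a median change of 0.02, against 9.58% of all genes tested that rose. Usp15 rose by 1.27 ± 0.202, from 7.91 and 7.96 in WT to 9.52 and 8.89 in KO. Usp21 rose by 1.85 ± 0.346 and lost its call without WT replicate 1. The list had 2 calls without KO replicate 1 or WT replicate 1, and 3 without KO replicate 2 or WT replicate 2.

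Chemokines, which draw monocytes and lymphocytes, rose in 12 of 18 tested members and fell in 1 (median change 3.20). Cxcl10, a ligand of CXCR3, lay at 12.63 and 12.37 in KO and at 5.43 and 5.45 in WT, a change of 7.06 ± 0.249 (limma, adjusted p = 4.45e-07). Ccl12 lay at 12.47 and 11.33 against 4.16 and 4.60, a change of 7.52 ± 0.323. Cxcl11 lay at 12.60 and 10.32 against 4.95 and 4.10, a change of 6.94 on the probe set used, while its other probe set had a change of 2.24 and did not pass. Ccl5 lay at 12.90 and 11.96 against 6.31 and 5.66. The monocyte attractants Ccl2 and Ccl7 also lay well apart between the KO arrays, at 12.64 and 10.61 for Ccl2 and at 11.94 and 9.19 for Ccl7. Both KO values lay above WT, which was at 6.66 and 6.77 for Ccl2 and at 5.29 and 5.07 for Ccl7. The increase of Ccl4 was smaller, 1.90 ± 0.283, from WT levels of 10.49 and 11.25. Pf4, a platelet chemokine also made by macrophages, fell by 1.89 and lost its call without KO replicate 1, WT replicate 1 or WT replicate 2. Among 5 chemoattractant receptors, Ccrl2 rose by 3.07 ± 0.403 and Fpr2, a formyl peptide receptor, by 2.39 ± 0.378, and the other 3 did not pass.

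Class I antigen presentation rose along its length, in 14 of 18 tested members with 1 that fell (median change 1.62). The peptide transporter Tap1 lay at 10.93 and 10.69 in KO and at 6.73 and 7.24 in WT, a change of 3.82 ± 0.198, while another of its probe sets had a smaller change that did not pass. The immunoproteasome subunits Psmb9, Psmb8 and Psmb10 rose by 3.07 ± 0.236, 2.43 ± 0.174 and 2.26 ± 0.158. The nonclassical gene H2-T24 rose by 4.15 ± 0.469. The classical heavy chains and their light chain, high in WT, rose least: H2-K1 by 0.86 and B2m by 0.48. H2-K1 lost its call without KO replicate 1 or WT replicate 1, and B2m without any 1 of the 4 arrays. The count was 11 without KO replicate 1 or WT replicate 1. Cd1d1, a lipid-presenting molecule, fell by 0.93 and lost its call without any 1 of the arrays. In class II presentation 4 of 10 rose, led by H2-Aa at 7.68 and 6.90 against 4.10 and 4.25, a change of 3.11 ± 0.480. H2-Eb1 rose by 1.53 ± 0.248. Cd74 and H2-Ab1 made up the count of 4, and both lost their calls without KO replicate 1 or WT replicate 1, which left 2.

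Co-stimulatory and checkpoint ligands rose in 10 of 16 (median change 1.24). Cd274, which encodes PD-L1, lay at 10.89 and 9.73 in KO and at 6.12 and 6.22 in WT, a change of 4.14 ± 0.345. Tnfsf10, the death ligand TRAIL, rose by 4.05 ± 0.394, Cd40 by 3.96 ± 0.360 and Lgals9, which encodes galectin-9, by 3.56 ± 0.174. Cd86 rose by 1.76 ± 0.381 and lost its call without KO replicate 1 or WT replicate 1, and the list then had 6 calls. Inflammatory mediators rose in 10 of 18 and fell in 1 (median change 2.15). Acod1, the enzyme that makes itaconate, lay at 12.22 and 11.17 against 6.23 and 5.52, a change of 5.83 ± 0.333. Il15 and its receptor chain Il15ra rose by 3.37 ± 0.341 and 2.81 ± 0.300, and Csf1, the growth factor of microglia, by 3.17 ± 0.285. The inhibitors Il18bp and Il1rn rose too, by 4.03 ± 0.468 and 3.72 ± 0.634. Tnf, at 9.60 and 8.43 against 7.72 and 7.60, rose by 1.36 ± 0.329 and lost its call without KO replicate 1, WT replicate 1 or WT replicate 2. Il6 (2.33), Ptgs2 (1.55), Il1b (0.65) and Nos2 (0.39) did not pass. Of 18 genes of the NF-kB pathway 5 rose and none fell (median change 0.63). Bcl3, a nuclear member of the IkB family, rose by 1.48 ± 0.272. It kept its call without each single array and lost it with the 4 arrays alone. The list had 1 call without KO replicate 1 or WT replicate 2, 2 without WT replicate 1 and 7 without KO replicate 2.

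Genes of the Schlafen and Ms4a families rose in 7 of 10 and fell in none (median change 2.21). Slfn1 lay at 10.72 and 9.57 in KO and at 2.96 and 3.17 in WT, and Slfn4 at 12.27 and 9.90 against 3.83 and 3.96. Ms4a4c lay at 12.73 and 12.11 against 5.12 and 5.34, a change of 7.19 ± 0.213. Complement genes rose in 3 of 12, against 9.58% of all genes tested. Cfb, factor B of the alternative pathway, lay at 9.84 and 7.95 against 3.71 and 4.33, and C2 at 10.29 and 9.84 against 5.51 and 6.10. C1ra made up the count and lost its call without KO replicate 1, WT replicate 1 or WT replicate 2. The C1q chains C1qa, C1qb and C1qc, among the highest values on every array, did not pass (0.28, 0.19 and 0.37). Of the Fc receptors, Fcgr4 rose by 3.73 ± 0.196 and Fcgr1 by 2.38 ± 0.174. Fcgr3 fell by 2.14, with KO at 8.86 and 10.94 and WT at 11.82 and 12.26, and lost its call without KO replicate 1, WT replicate 1 or WT replicate 2.

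**Figure D3:**
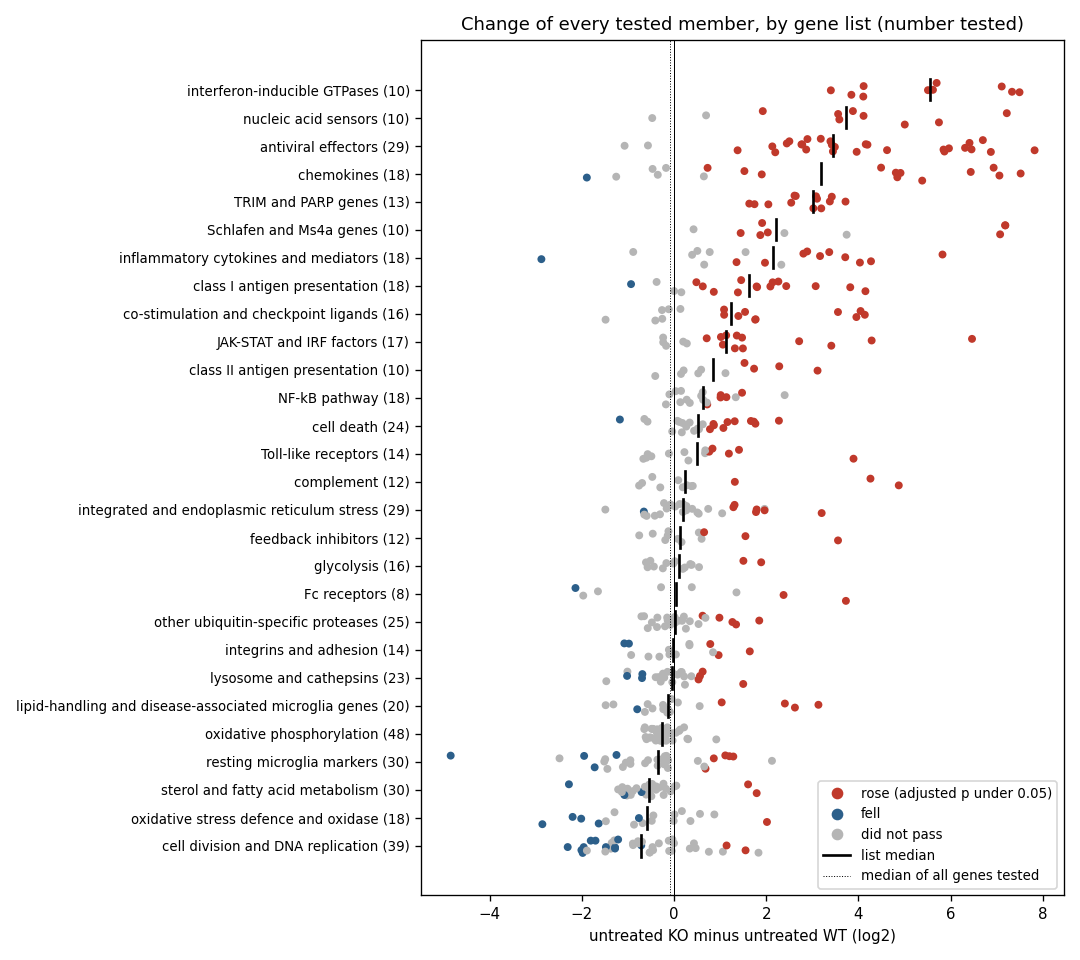
Change of each tested member of 28 gene lists (horizontal axis, untreated KO minus untreated WT, log2), red for genes that rose, blue for genes that fell and grey for those that did not pass; black bars are list medians and the dotted line is the median of all genes tested (-0.09). Lists of interferon-induced genes lie to the right, with medians up to 5.57 for the GTPases, and cell division lies farthest to the left at -0.71.

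Genes of cell death rose in 10 of 24 and fell in 1 (median change 0.53). Casp4, known in mice as caspase-11 and a sensor of bacterial lipopolysaccharide, lay at 11.21 and 10.35 in KO and at 8.37 and 8.63 in WT, a change of 2.28 ± 0.261. Bak1, which opens the outer mitochondrial membrane, rose by 1.77 ± 0.167, Casp1 by 1.67 ± 0.258 and Casp8 by 1.32 ± 0.157. Cflar, an inhibitor of caspase-8, rose by 1.73 ± 0.227, and Casp6 fell by 1.18. The list had 6 increases without KO replicate 1, 7 without either WT replicate and 4 with the 4 arrays alone. In the integrated and endoplasmic reticulum stress list 6 of 29 rose and 1 fell, with a median change of 0.20. Ddit3, the stress factor CHOP, lay at 11.52 and 9.96 against 7.44 and 7.63, a change of 3.20 ± 0.502. Atf4 rose by 1.31 ± 0.203. The chaperone Hspa5 did not pass (0.39). The list had 3 increases without KO replicate 1, 4 without WT replicate 1, 2 without WT replicate 2 and 11 without KO replicate 2.

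Among genes that define microglia the changes went both ways: of 30 markers of resting microglia 5 rose and 4 fell, with a median change of -0.36, against 9.58% and 8.25% of all genes tested. Gpr34, a lysophosphatidylserine receptor, had the largest decrease of all genes tested, with KO at 2.51 and 4.07, WT at 7.33 and 8.95 and a change of -4.85 ± 0.564 (limma, adjusted p = 0.000613). Cx3cr1, the fractalkine receptor, lay at 8.93 and 9.10 against 10.78 and 10.71, a change of -1.72 ± 0.320, and lost its call without KO replicate 1 or WT replicate 1. Bin1, an endocytic adaptor, fell by 1.25. P2ry12, the receptor for ADP that marks resting microglia, was higher in KO, at 8.01 and 8.11 against 6.75 and 7.14, a change of 1.11 ± 0.192, and Aif1, which encodes IBA1, rose by 1.29 ± 0.222. Both lost their calls with the 4 arrays alone, P2ry12 also with 24 arrays. Tmem119, Trem2, Csf1r and Tyrobp did not pass (-0.95, -1.49, -0.20 and -0.13). Without KO replicate 1 the list had 2 that rose and 2 that fell, without KO replicate 2 it had 3 and 9, without WT replicate 1 it had 3 and 2, and without WT replicate 2 it had 2 and 3. In genes of lipid handling and disease-associated microglia 4 of 20 rose and 1 fell, beside those same shares of all genes tested. Axl, a receptor for dying cells, lay at 10.89 and 11.14 against 7.60 and 8.17, a change of 3.13 ± 0.351, and Ch25h, which makes 25-hydroxycholesterol, rose by 2.41 ± 0.355. Apoe, the main lipoprotein of microglia, had a change of -0.15 and did not pass. The calls of Cst7 and Cd52 were lost without KO replicate 1 or WT replicate 1, which left 2 increases. Of 23 genes of the lysosome 4 rose and 3 fell, against the same 9.58% and 8.25% of all genes tested. Ctsh alone kept its call when each array was left out.

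Oxidative stress defence leaned downward, with 5 of 18 that fell and 1 that rose (median change -0.58). Hmox1, heme oxygenase, lay at 8.99 and 8.94 in KO and at 10.47 and 10.73 in WT, a change of -1.64 ± 0.154 (limma, adjusted p = 0.000176). Keap1, which holds back the antioxidant factor NRF2, rose by 2.02 ± 0.191. The metallothioneins Mt1 and Mt2 fell by 2.86 and 2.20, and Gclm, of glutathione synthesis, by 2.02. Mt1 and Mt2 lost their calls without KO replicate 1, WT replicate 1 or WT replicate 2, and Gclm without KO replicate 1 or WT replicate 1. The list had 1 decrease without KO replicate 1 or WT replicate 1 and 2 without WT replicate 2, but 4 with the 4 arrays alone. Cell division had 11 of 39 that fell and 2 that rose (median change -0.71), against 8.25% of all genes tested that fell. Mki67 lay at 5.78 and 6.75 against 8.45 and 8.0, Birc5 at 5.08 and 5.94 against 7.64 and 7.40, and Cenpa, the centromeric histone, at 5.14 and 5.90 against 7.85 and 7.81. Their changes were -1.96 ± 0.368, -2.01 ± 0.372 and -2.31 ± 0.443. Each lost its call without KO replicate 1 or WT replicate 1, and Cenpa also without WT replicate 2. The decreases were 3 without KO replicate 1, 2 without WT replicate 1, 8 without WT replicate 2, 17 without KO replicate 2 and 5 with the 4 arrays alone. Of the increases in that list, Cdkn1a, the inhibitor p21, rose by 1.14 ± 0.261 and lost its call without KO replicate 2 or either WT replicate.

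In sterol and fatty acid metabolism 3 of 30 fell and 2 rose, against 8.25% and 9.58% of all genes tested. Of the 30 values 26 were negative (median change -0.53), beside 4280 of 7528 over all genes tested (median -0.09). Stard4, a sterol carrier, lay at 5.13 and 5.43 in KO and at 7.68 and 7.44 in WT, a change of -2.28 ± 0.341, and the cholesterol exporter Abcg1 rose by 1.79 ± 0.234. The decreases were 1 without KO replicate 1 or WT replicate 2, 2 without WT replicate 1 and 6 without KO replicate 2. None of 48 genes of oxidative phosphorylation passed in limma, and 1 was higher and 5 were lower at an unadjusted p under 0.05. Of the 48 values 41 were negative, with a median of -0.27, beside the same 4280 of 7528 and -0.09 over all genes tested. Without KO replicate 2, 2 of them fell. Of 16 genes of glycolysis 2 rose, against 9.58% of all genes tested. Pfkfb3, which sets the rate of the pathway, lay at 8.26 and 8.34 against 5.98 and 6.84, a change of 1.89 ± 0.331.

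The largest decreases held genes of several functions. Dkk2, a secreted modulator of Wnt signalling, lay at 3.10 and 4.59 in KO and at 8.20 and 8.98 in WT, a change of -4.74 ± 0.456 (limma, adjusted p = 0.000193). Hnmt, which inactivates histamine, lay at 2.88 and 3.27 against 6.17 and 6.58, a change of -3.30 ± 0.188. Slc40a1, the iron exporter ferroportin, lay at 5.13 and 6.92 against 9.34 and 9.92, a change of -3.60 ± 0.675, and lost its call without KO replicate 1 or WT replicate 2. Adamts1, a metalloprotease, fell by 3.23, and Arg2, the mitochondrial arginase, fell by 2.88. The sialyltransferases St6gal1 and St8sia4 fell by 3.39 and 2.73, and the call of St6gal1 was lost without WT replicate 1 or WT replicate 2. Some of these genes were near the floor in WT cells of the second run as well. Gpr34 lay at 2.48 and 2.76 there and Dkk2 at 2.74 and 2.76 (untreated WT replicates 1 and 2 of the second run), as low as in the KO cells. The part of differences between cultures in these decreases was not tested.

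Markers of the cells themselves and of other cells were read on the same arrays. All 16 tested general microglia and macrophage markers were present at a mean of 11.58 and 11.77 in KO and 11.62 and 11.77 in WT. Of these, 4 rose and 1 fell (2 and 0 without KO replicate 1 or WT replicate 1, 2 and 2 without KO replicate 2, 2 and 1 without WT replicate 2). C1qa, highly expressed by microglia, lay at 13.18 and 13.22 against 12.92 and 12.93. Markers of neurons were higher on KO replicate 2 than on any other untreated array, with a mean over 5 genes of 4.75 and 7.06 in KO and 5.80 and 5.09 in WT. The 9 genes of the oligodendrocyte lineage did the same, at 6.89 and 8.22 against 7.53 and 6.93, and the 5 astrocyte genes ran at 6.84 and 8.53 against 7.99 and 7.67. None of the 5 neuronal genes passed, and Tubb3 lay at 5.62 and 8.58 against 7.01 and 6.22. In the oligodendrocyte list only Cnp rose, by 1.84 ± 0.167. In the astrocyte list Aldh1l1 rose by 1.76 ± 0.225, Glul, at 7.43 and 9.52 against 10.56 and 11.14, fell by 2.38 and lost its call without KO replicate 1, WT replicate 1 or WT replicate 2, and Gfap stayed under the array medians. Of 4 tested endothelial markers 2 rose, against 9.58% of all genes tested, and all 4 changes were positive. Their mean was 7.35 and 6.66 in KO and 5.31 and 5.42 in WT. Kdr, an endothelial receptor gene, rose by 3.98 ± 0.384, while Pecam1 and Cldn5 stayed under the array medians and were not tested.

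Markers of macrophages at brain borders had 2 of 9 that fell, against 8.25% of all genes tested. Their mean was 7.80 and 8.67 in KO and 9.31 and 9.56 in WT. Mrc1, the mannose receptor, lay at 4.28 and 6.74 against 9.10 and 9.72, a change of -3.90 ± 0.790, and lost its call without KO replicate 1 or WT replicate 2. Marco fell by 1.03 and lost its call without any 1 of the arrays. Of 3 tested monocyte and granulocyte markers Plac8 rose, by 3.52 ± 0.732, and lost its call without WT replicate 1 or WT replicate 2, while S100a8 and Ccr2 stayed under the array medians. Fewer cells of a type and less RNA per cell cannot be told apart on such arrays. The cultures also differed in sex-linked genes: Xist lay at 10.63 and 9.18 in KO and at 10.75 and 5.42 in WT, and the Y-linked Eif2s3y at 3.94 and 6.57 against 6.11 and 8.18. None of the 4 sex-linked genes tested passed. What part these differences between cultures have in the increases and decreases listed above was not tested. For the antiviral effectors and the GTPases the counts of increases were the same without each of the 4 arrays. Leaving out 1 array does not test a difference that both arrays of a group share.

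The 12 arrays of the run let the untreated difference be set against that under interferon. Untreated KO cells had a mean level of the 29 antiviral effectors of 11.21 and 10.88, WT cells given IFN-b for 6 h had 10.88 and 11.02, and untreated WT cells had 7.01 and 7.33. For the 10 GTPases the values were 11.13 and 10.45 in untreated KO, 10.75 and 10.87 in WT at 6 h and 5.28 and 5.46 in untreated WT. So without added interferon the KO arrays lay in or near the range of WT arrays after 6 h of it. In WT cells at 24 h the antiviral mean was 10.33 and 10.44 and the GTPase mean 9.61 and 9.52, below every KO array at any time. For the inflammatory mediators untreated KO cells lay on either side of WT cells at 6 h, at 7.94 and 6.95 against 7.57 and 7.70. KO cells at 6 h were higher still, at 9.25 and 8.76.

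**Figure D4:**
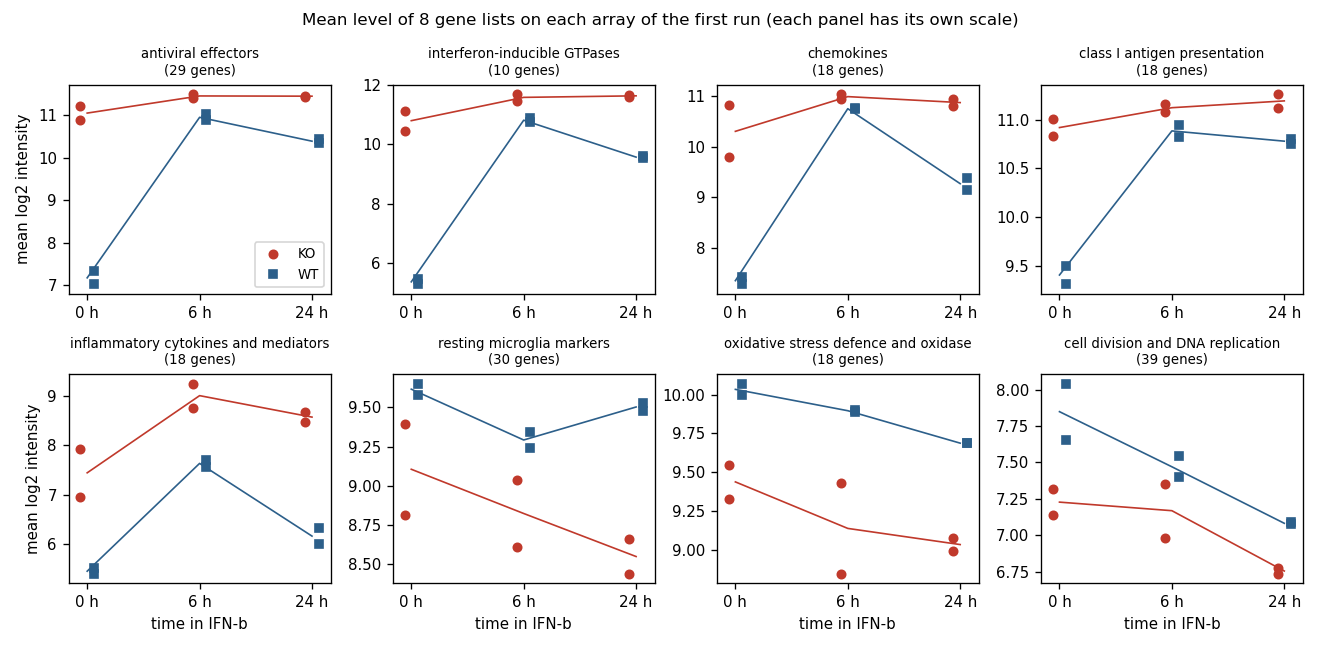
Mean log2 intensity (vertical axis) of 8 gene lists on each of the 12 arrays of the first run at 0 h, 6 h and 24 h in IFN-b, red circles for KO and blue squares for WT; lines join group means. The antiviral effectors of KO cells start at 11.21 and 10.88, beside the WT arrays at 6 h, while resting microglia markers, oxidative stress defence and cell division are lower on both untreated KO arrays than on both untreated WT arrays.

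The knockout effect was then compared between untreated cells and cells given IFN-b, as a difference of differences. The untreated effect minus that at 6 h was positive in 251 genes (3.33% of those tested) and negative in 49 (0.651%). The sign does not tell which effect was the larger: Usp18 counts as positive, with -1.75 untreated and -6.35 at 6 h. Against 24 h the counts were 127 (1.69%) and 36 (0.478%). With culture as a random block these counts were 614 and 289 at 6 h and 454 and 306 at 24 h, and in the fit of 24 arrays 68 and 23, and 40 and 17. Of the 721 genes that rose untreated, 222 differed at 6 h and in all 222 the effect at 6 h was lower. At 24 h 103 differed, and in 101 the effect was lower. Lower here goes by sign and takes in effects below 0. The median effect over the 721 genes was 1.36 untreated, 0.44 at 6 h and 0.99 at 24 h. Genes chosen as called in untreated cells tend to show a smaller effect elsewhere by that choice alone, and the tests of the difference share the untreated arrays with the choice. In Cxcl10 the effect was 7.06 untreated, 0.34 at 6 h and 4.15 at 24 h, as WT cells reached 12.70 and 12.53 at 6 h and returned to 8.24 and 9.10. In Rsad2 it was 6.32, 0.10 and 1.23. Of the 621 genes that fell, 39 differed at 6 h, and in 38 the effect at 6 h was less negative or positive. At 24 h 13 differed, 12 of them in that direction. These counts go by sign and not by size. Cytip changed sign, from -3.57 untreated to 0.78 at 6 h and 1.38 at 24 h. Gpr34 went from -4.85 to -0.10 at 6 h, where WT cells had dropped to 2.53 and 2.85. Hmox1 kept a similar effect, -1.64 untreated, -1.76 at 6 h and -1.74 at 24 h.

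Not every difference shrank. The effect on Usp18 itself was larger under interferon, -6.35 at 6 h and -4.99 at 24 h, and differed from the untreated effect by 4.60 ± 0.383 (limma, adjusted p = 0.000185) and 3.23 ± 0.383 (limma, adjusted p = 0.00283). Neither difference passed in the fit of 24 arrays. Socs2, an inhibitor of growth hormone signalling, had effects of 1.55 untreated and 5.26 at 24 h, a difference of -3.71 ± 0.624 (limma, adjusted p = 0.0192). Klf4, a factor of macrophage differentiation, had an untreated effect of 0.02 and one of 4.27 at 24 h, a difference of -4.25 ± 0.744 (limma, adjusted p = 0.0233). Both lost the call without either WT replicate at 24 h, either untreated WT replicate or KO replicate 2 at 24 h, Socs2 also without KO replicate 1 at 24 h and Klf4 without untreated KO replicate 2. Leaving out single arrays moved these counts. Against 6 h the 251 became 151 without untreated KO replicate 1, 135 and 150 without untreated WT replicates 1 and 2, and 167 and 137 without WT replicates 1 and 2 at 6 h. The 49 became 16 without untreated KO replicate 1 and 78 without untreated KO replicate 2, 24 without KO replicate 1 at 6 h, 23 and 16 without untreated WT replicates 1 and 2, and 27 and 25 without WT replicates 1 and 2 at 6 h. Against 24 h the 127 became 76 without untreated WT replicate 1, without WT replicate 1 at 24 h or without KO replicate 2 at 24 h, 77 without KO replicate 1 at 24 h and 68 without WT replicate 2 at 24 h. The 36 became 15 without untreated KO replicate 2, 10 and 4 without KO replicates 1 and 2 at 24 h, 5 and 9 without untreated WT replicates 1 and 2, and 7 and 5 without WT replicates 1 and 2 at 24 h.

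**Figure D5:**
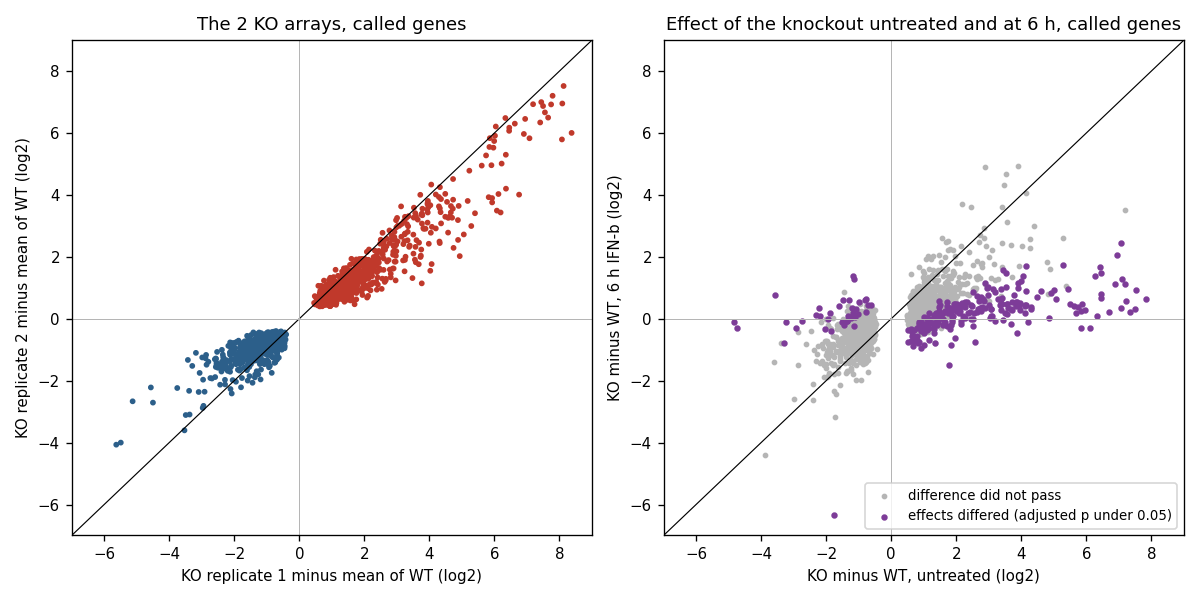
Left, the 1342 called genes with KO replicate 1 (horizontal) and KO replicate 2 (vertical) each as a log2 difference from the mean of the untreated WT arrays; right, the same genes by their KO minus WT difference untreated (horizontal) and at 6 h of IFN-b (vertical), purple where the pair of effects differed. Lines mark equal values; on the left 617 of 721 raised genes lie farther out in replicate 1, and on the right the genes with the largest untreated increases lie near 0 at 6 h.

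The C61A mutation leaves the Usp18 protein without its protease activity. Which role of Usp18 lies behind the KO differences was not tested. The WT arrays beside the C61A arrays did not follow their labels alike. The array labelled untreated WT replicate 1 of the second run had Usp18 at 12.97 and an antiviral mean of 10.22, where untreated WT replicate 2 of that run had 9.31 and 7.33. The C61A arrays had antiviral means of 8.27 and 6.81. The array labelled C61A 6 h replicate 2, also in doubt, enters the fit only through its spread. Without this doubted pair, WT replicate 2 is the only untreated WT array of the second run. Every C61A effect without the pair is read against that 1 array. WT replicate 1 was doubted for its interferon-induced genes, which are among the genes compared below. The first and second runs also differ in ways that cannot be told apart from genotype in the KO against C61A difference, except through the WT arrays of each run.

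On all 24 microglia arrays the KO effect exceeded the C61A effect in 601 of 7960 genes (7.55%) and lay below it in 370 (4.65%). Without the doubted pair of arrays these counts were 445 and 89. The C61A effect itself passed upward in 0 genes by limma and downward in 1, and in 0 and 3 without the doubted pair. At an unadjusted p under 0.05 it was higher in 76 genes and lower in 315, and higher in 44 and lower in 249 without the pair. Of the 721 genes that rose in KO cells, 527 differed from the C61A effect, and 412 without the doubted pair. These genes were chosen for a raised KO effect on the same KO and WT arrays, so a high share follows in part from that choice. Over these 721 genes the median C61A effect was -0.57, and -0.12 without the doubted pair, beside a median KO effect of 1.36. Mx1 had an effect of 7.83 in KO cells and, without the doubted pair, of 1.22 ± 0.818 in C61A cells, a difference of 6.61 ± 1.06. With all arrays its C61A effect was -2.65 ± 1.71 and the difference 10.47 ± 2.42. Cxcl10 differed by 7.06 ± 0.673 and Iigp1 by 7.56 ± 0.739 without the pair. The WT array left, replicate 2 of the second run, lay at 8.38 for Cxcl10 and 6.33 for Iigp1. Both values are above those of the untreated WT arrays of the first run. Its mean over the 10 GTPases was 7.23, against 5.28 and 5.46 in the first run. Over the 29 antiviral effectors it was 7.33, against 7.01 and 7.33. The probe sets of a list can differ between the fits. Dkk2 differed by -4.68 ± 0.605 without the pair and by -4.69 ± 0.508 with it, but all untreated arrays of the second run lay between 2.68 and 2.76, far below the array medians, so that a decrease in C61A cells could not have been seen and the difference restates the KO effect. The higher count of 601 became 208 without untreated KO replicate 1, 318 and 309 without untreated WT replicates 1 and 2 of the first run, 242 without untreated WT replicate 1 of the second run and 329 without C61A replicate 1. The lower count of 370 became 48 without untreated KO replicate 1, 657 without untreated KO replicate 2, 136 and 76 without WT replicates 1 and 2 of the first run, 44 and 615 without WT replicates 1 and 2 of the second, and 91 and 245 without C61A replicates 1 and 2.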

How the data were processed

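The authors deposited a table of log2 intensities of 36 Affymetrix arrays, 22690 probe sets each. The submitters' processing notes name affy. What version of it was run, how probes were summarised and how arrays were scaled is not given in the sources used here. A log base of 2 is inferred from the range, 1.66 to 14.03. Detection calls were not used here. Probe sets with 1 gene (20393; 691 had several and 1606 none) covered 12394 genes. Probe sets had to exceed the median of the array on 2 or more arrays in the fit, and where several of one gene did, the one with the highest mean stood for it.

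Fits used limma 3.58.1 in R 4.3.3: group means of the 12 arrays of the first run (7528 genes), or of 24 microglia arrays in cells of genotype, time and run (7960 genes) for C61A, with empirical Bayes moderation. P-values were adjusted by Benjamini and Hochberg's method across every gene in the fit. Residual degrees of freedom (6 and 12) ignore that arrays of one genotype and replicate number deviated together over time, with correlations of 0.699 to 0.823 in KO and 0.394 to 0.662 in WT. With 2 arrays a group, their number limits the precision. Runs are those of the deposition order, and the labels do not say what they are. The fit was tested on simulated data. For the comparison of untreated KO and WT, over 7528 genes, it recovered 38.2%, 77.3% and 100.0% of changes of 1, 2 and 4, with 6 false calls among the unchanged genes. Errors there were drawn independently for every array, and 68, 66 and 66 genes were changed by these sizes. The simulation does not cover arrays that deviate together, so its 6 false calls are not an error rate of the real fit. The 43 gene lists, the members and the tests were chosen with earlier results of these data known. Named genes are Usp18, the 15 largest changes in each direction, up to 6 called members of each list in each direction, members of marker lists, and for other comparisons the 10 largest changes in each direction. Other names (among them Ifit1, Irgm1, Irf9, Irf5, Bcl3, genes that did not pass and Hmox1 beside the interferon effects) were chosen after their values were seen. Replicate numbers did not pair KO with WT (closing section). Promoters are those of RefSeq (GRCm38.p6). Figures used Python 3.11.15 and matplotlib 3.10.9.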

Additional observations from a re-analysis of the deposited data

Results flagged for a closer look

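The knockout effect in untreated cells differed from that at 6 h of IFN-b in 251 genes in the positive direction and in 49 in the negative direction, by the test of the difference itself (limma, adjusted p under 0.05, 2 arrays a group). The largest positive differences were 7.19 for Iigp1, 7.18 for Mx1 and 7.12 for Gbp2, in which the 6 h effects were 0.31, 0.65 and 0.22. The largest negative ones were -4.74 for Gpr34, -4.44 for Dkk2 and -4.35 for Cytip, a regulator of leukocyte adhesion. Cytip went from -3.57 untreated to 0.78 at 6 h, and lost its call without any one of the arrays compared other than untreated WT replicate 2 and WT replicate 2 at 6 h. Gpr34 lost its call without WT replicate 1 at 6 h. Usp18 differed by 4.60.

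Against 24 h, 127 genes differed in the positive direction and 36 in the negative. The largest positive differences were 6.37 for Ms4a4c, 5.80 for Ccl5 and 5.74 for Iigp1. The largest negative ones were -4.95 for Cytip, -4.25 for Klf4 and -3.71 for Socs2, and Usp18 differed by 3.23. Cytip lost its call without any one of the arrays compared other than untreated WT replicate 2 and KO replicate 1 at 24 h.

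The knockout effect exceeded the C61A effect in 601 genes and lay below it in 370. The largest positive differences were 10.55 for Iigp1, 10.47 for Mx1 and 10.32 for Ifi209, and they were 7.56, 6.61 and 7.74 without the doubted pair of arrays. Without that pair the order changes: among the named genes Cxcl11 came first at 8.39, and Gbp2 (7.68), Gbp6 (7.39), Oasl1 (7.21) and Slfn4 (7.17) also exceeded Mx1. The largest negative ones were -5.53 for Slc40a1, -4.69 for Dkk2 and -4.66 for Gpr34, and without that pair they were -4.68, -4.68 and -4.52. Dkk2 and Gpr34 were far below the array medians on all 4 untreated arrays of the second run, so a decrease in C61A cells could not have been seen in them. Slc40a1 was read by another probe set on the 24 arrays than on the 12.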

How the results depend on the processing

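The counts of genes that differed between untreated KO and WT stayed within 1.5 times under median centring, quantile normalization, no filter, a stricter filter, the mean of probe sets, a mean-variance trend, culture as a random block and the fit of 24 arrays. With the 4 untreated arrays alone they were 316 up (313 shared with the 721) and 114 down (109 shared), and with the WT arrays of both runs pooled with no run term, which takes in the doubted WT array, 157 and 88. Leaving out 1 array gave 386 to 796 up and 128 to 787 down. Against 6 h the counts ran from 135 to 285 and from 16 to 78, against 24 h from 68 to 122 and from 4 to 43, and against C61A from 208 to 747 and from 44 to 657. With culture as a random block they were 614 and 289 at 6 h and 454 and 306 at 24 h, and with 24 arrays 68 and 23, and 40 and 17. Without the doubted pair the lower count against C61A was 89. The cause of these shifts was not tested.

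Same-numbered KO and WT arrays of one time deviated from their group means with correlations of -0.079, -0.080 and -0.067, so the numbers do not pair the genotypes. With the replicate block 893 genes rose and 964 fell, 330 and 87 differed at 6 h, 185 and 67 at 24 h, and 791 and 620 from C61A.

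Of the 148 named genes that were called, 113 kept the call without each of the 4 arrays. With those arrays alone 115 did not lose it, and 95 lost it in no setting other than the pooled WT arrays. The counts of 115 and 95 take in genes that a setting did not test. Usp18, Ifnb1 and H2-Ab1 were not tested with the 4 arrays alone. With pooled WT arrays the change turned to 0.14 for St8sia4, 0.36 for Csf1r, 0.11 for Tyrobp, 0.85 for Apoe, 0.90 for Ifitm2, 0.35 for Ifnar2, 0.28 for Irf3, 0.27 for Irf8, -0.47 for Klf4, -1.43 for Ptgs2 and -1.01 for Socs3. Leaving out 1 array moved Tubb3 from -1.0 to 1.96, Xist from -0.85 to 4.48, Ifnar2 from -0.32 to 0.025, Irf8 from -0.63 to 0.16 and Klf4 from -0.48 to 0.51. Of these only St8sia4 was called. The longer motif gave 2.264% of windows of raised genes in place of 7.17%. Over all probe sets the replicate correlations were 0.973 for KO and 0.990 for WT. Levels below the array medians limit how far a decrease can be measured.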

Other observations

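Of the genes that rose, 520 lay outside every gene list, and 10 of these rose by over 4. The purinergic receptor gene P2ry14 lay at 9.52 and 8.86 in untreated KO cells and at 3.43 and 4.39 in WT cells, a change of 5.28 ± 0.339. Fgl2, which encodes a secreted and membrane-bound fibrinogen-like protein, lay at 11.64 and 9.55 against 5.39 and 5.64. Slamf7 and Slamf9, receptors of the SLAM family on leukocytes, rose by 4.79 ± 0.750 and 3.89 ± 0.425, and the WT level of Slamf9 was 8.93 and 8.45. Ddx4, a helicase known from germ cells, lay at 9.19 and 7.03 against 2.86 and 2.79, a change of 5.28 ± 0.583. The collagenase gene Mmp13 rose by 3.69 ± 0.376, and Gch1, of tetrahydrobiopterin synthesis, by 3.07 ± 0.303. These genes were picked after their values were seen.

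Of the genes that fell, 579 lay outside every list, and 27 of these fell by over 2. S1pr1, a sphingosine-1-phosphate receptor gene, lay at 5.68 and 5.52 in KO and at 7.87 and 7.71 in WT, a change of -2.19 ± 0.177. Sesn1, a stress-induced regulator of mTORC1, lay at 7.80 and 9.11 against 10.70 and 11.02. Thbd, which encodes thrombomodulin, fell by 2.05, and Rdh10, of retinoic acid synthesis, by 2.23. Each kept its call when any one of the 4 untreated arrays was left out. Sesn1 lost it with those arrays alone and S1pr1 with 24 arrays.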
